A study of Mus musculus with 6 samples.

Results

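Retinal ganglion cell genes were followed as 10 members, chosen by symbol from the transcription factors and axon genes of these cells: Pou4f1, Pou4f2, Isl1, Ebf1, Ebf3, Sncg, Nefl, Nefm, Gap43 and Tubb3. All 10 were found among the 23441 genes of the count table, and all 10 were among the 14609 that passed the filter on low counts. RNA came from mouse retina at embryonic day 14.5, in 3 libraries of a Ronin conditional knockout (CKO) and 3 control libraries. CKO mice carried 1 copy (+/tg) of a Cre::GFP transgene that is active in retinal progenitors, with Ronin flox/flox alleles, and controls carried Ronin flox/flox alleles without it, so the floxed alleles were common to both and the Cre-GFP transgene was confined to the CKO. Both groups were of a mixed background that the labels give as C57/B6, SJL/B6, FVB and 129/Sv. Thap11 encodes Ronin, which binds DNA through the THAP type of zinc finger. Ganglion cells descend from such progenitors, and this Cre line is known to act in a mosaic way. The labels do not say whether replicates came from separate animals or litters, so p-values reflect only how these libraries vary, part of which may be technical.

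Ganglion cells are the output neurons of the retina and the first neurons born there. Progenitors that express Atoh7 give rise to cells that switch on the POU factor Pou4f2 and the LIM-homeodomain factor Isl1, and these act together on genes of the ganglion cell programme, among them further transcription factors, neurofilaments and growth cone proteins. Axons leave through the optic stalk while later cells are still being born, so a retina of this age holds progenitors and ganglion cells at many stages.

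Libraries held between 23721052 and 28504391 counted reads. Levels are given as CPM, counts per 1000000 reads of the library size after TMM scaling. Thap11 stood at 11.2, 10.9 and 6.38 CPM in CKO replicates 1 to 3, against 68.3, 82.0 and 71.6 CPM in control replicates 1 to 3, so that the log2 fold change was -2.96 ± 0.24 (SE). The adjusted p was 0.00425 (quasi-likelihood test in edgeR, Benjamini-Hochberg over all tested genes). Control replicate 2 stood apart from every other library, with correlations of log2 CPM of 0.954 to 0.973 to the other 5. Retinal progenitor markers (15 genes) summed to 10310 to 10930 CPM in the CKO and 11010 to 11950 CPM in the controls, while 11 markers of optic stalk, glia and forebrain summed to 35.8 to 41.2 CPM and 32.0 to 37.8 CPM. Lens markers summed to 8323, 62.8 and 544 CPM in CKO replicates 1 to 3, against 12.1 to 18.0 CPM in the controls, where 2 of the 16 had no read in any library.

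Promoter sequence was available in RefSeq (GRCm38.p6) for 7 of the 10 members, 250 bases before to 50 after the annotated start. Ebf1 has 2 entries, which makes 8 promoters. Those of the related factors Pou4f1 and Pou4f2, of their partner Isl1 and of the tubulin gene Tubb3 are shown 5′ to 3′ on the strand of the gene because these genes open the account of each class below; capitals mark CCAAT boxes on either strand. The windows are chr14:104467950-104468249 (minus strand) for Pou4f1, chr8:78436598-78436897 (minus strand) for Pou4f2, chr13:116309639-116309938 (minus strand) for Isl1 and chr8:123411303-123411602 (plus strand) for Tubb3.
Pou4f1: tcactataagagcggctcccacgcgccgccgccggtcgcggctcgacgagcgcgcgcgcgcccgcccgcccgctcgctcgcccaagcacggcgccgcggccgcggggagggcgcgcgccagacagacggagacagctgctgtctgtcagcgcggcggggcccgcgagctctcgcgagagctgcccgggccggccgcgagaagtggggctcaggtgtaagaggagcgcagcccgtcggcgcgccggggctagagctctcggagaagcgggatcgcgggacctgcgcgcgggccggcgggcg
Pou4f2: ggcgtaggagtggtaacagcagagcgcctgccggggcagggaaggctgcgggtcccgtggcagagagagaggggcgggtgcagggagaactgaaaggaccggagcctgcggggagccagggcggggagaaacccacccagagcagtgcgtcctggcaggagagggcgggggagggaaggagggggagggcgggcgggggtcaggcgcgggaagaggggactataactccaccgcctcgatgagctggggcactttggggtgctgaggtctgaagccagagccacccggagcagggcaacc
Isl1: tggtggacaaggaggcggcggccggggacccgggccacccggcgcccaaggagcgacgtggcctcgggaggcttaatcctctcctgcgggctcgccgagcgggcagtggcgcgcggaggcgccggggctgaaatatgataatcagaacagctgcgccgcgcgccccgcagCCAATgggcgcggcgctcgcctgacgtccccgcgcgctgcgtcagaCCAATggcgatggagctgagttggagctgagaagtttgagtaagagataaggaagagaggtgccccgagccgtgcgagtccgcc
Tubb3: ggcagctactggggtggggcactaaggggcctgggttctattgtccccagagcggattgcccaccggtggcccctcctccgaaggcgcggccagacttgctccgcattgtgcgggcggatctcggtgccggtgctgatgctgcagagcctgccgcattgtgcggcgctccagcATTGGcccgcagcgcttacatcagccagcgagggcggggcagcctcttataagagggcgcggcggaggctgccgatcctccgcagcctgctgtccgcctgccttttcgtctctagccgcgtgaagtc

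The letters ACTACA followed after a gap of 2 bases by TCCCA, the core of the site known to be bound by Ronin and its partner ZNF143, were searched on both strands. This element was present in 57 of 96 promoters (59.4%) of genes called lower in the CKO and in 407 of 13703 promoters (2.97%) of all tested genes. Of the 8 ganglion cell promoters, 0 held these letters. The TATA box letters TATAAA were likewise in 0 of the 8, against 7.04% of all tested promoters. CCAAT, on either strand, was found in 2 of the 8, those of Isl1 and Tubb3, against 37.3% of all. In the Isl1 promoter it occurred at bases -80 to -76 and -34 to -30 from the start, and in the Tubb3 promoter on the opposite strand at -77 to -73. GC content was 78.3% for Pou4f1, 69.7% for Pou4f2 and 77% for Ebf3, but 36.7% for the upstream Ebf1 entry, where the median promoter had 60.7%.

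The comparison of the genotypes asked whether ganglion cell transcripts differ in a retina with the Ronin knockout, where Thap11 RNA was lowered but not absent. No member passed the test: 0 of 10 had an adjusted p under 0.05 (edgeR quasi-likelihood test), where 0.897% of all tested genes did, and 0 of 10 had an unadjusted p under 0.05, where 6.58% of all did. DESeq2's Wald test, which called 1.64% of all genes, and limma-voom, which called 0.821%, also called 0 of 10. Log2 fold changes, CKO over control, lay between -0.36 and 0.25 with a median of 0.06, against a median of -0.03 over all tested genes. They were positive for 6 members and negative for 4. Each of the 10 members had between 1599 and 31006 reads in every library, so counting error was small beside the spread between libraries. The 95% intervals of all 10 members lay within 2-fold in either direction, and those of 6 lay within 1.5-fold. Summed over the 10 members, levels were 3922, 3861 and 4045 CPM in the CKO, against 3535, 4550 and 3472 CPM in the controls. The number of ganglion cells and the RNA per cell cannot be told apart in such whole-tissue samples.

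**Figure D1:**
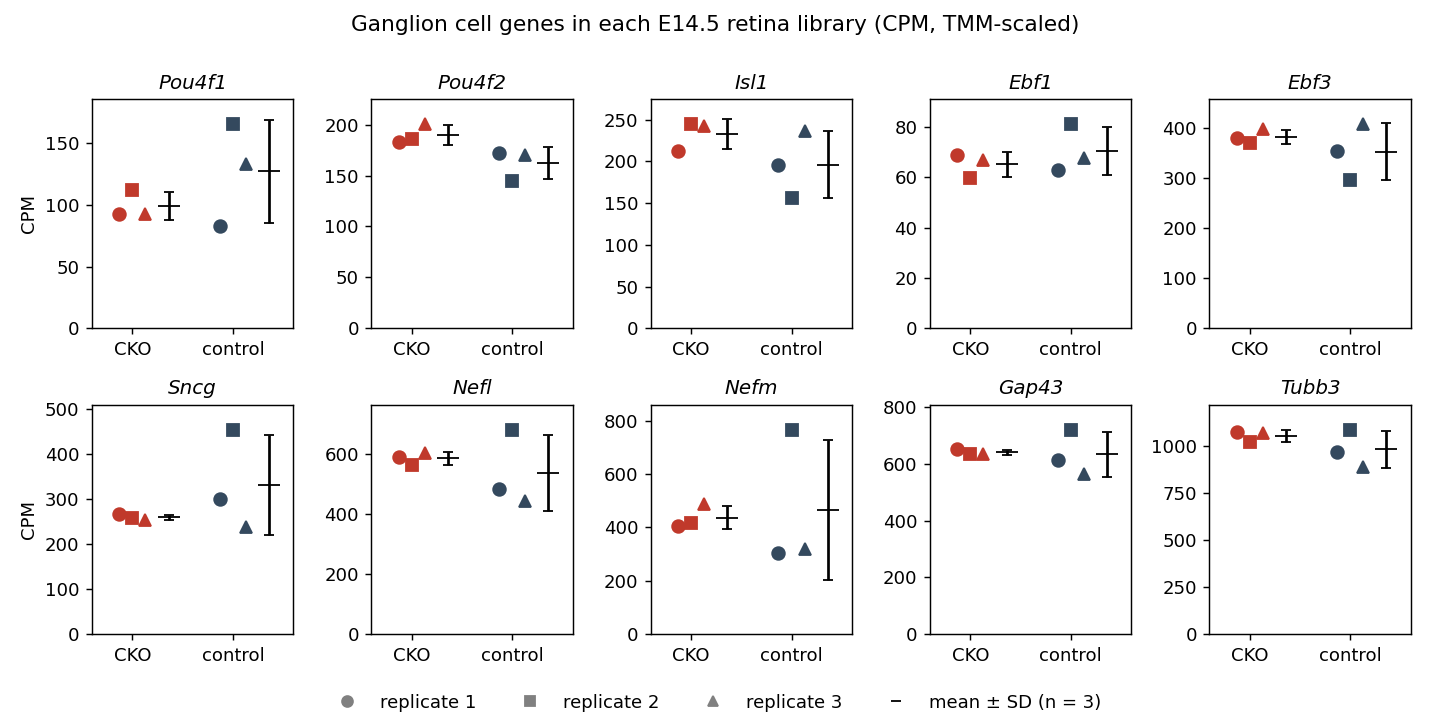
Level of each of the 10 ganglion cell genes (CPM, vertical axis starting at 0) in each of the 3 CKO and 3 control libraries, with the marker shape giving the replicate and the bar the mean ± SD of 3 libraries. CKO libraries lie close together, whereas control replicate 2 (squares) is the highest or lowest library for all 10 genes.

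The transcription factors were examined first. Pou4f2 (Brn3b), required for ganglion cell differentiation and survival, stood at 183, 186 and 201 CPM in CKO replicates 1 to 3, against 172, 144 and 170 CPM in control replicates 1 to 3. All CKO libraries lay above all controls. It was the one member whose genotypes did not overlap, where 12.6% of all tested genes had no overlap, 5.74% with the CKO above. Its log2 fold change was 0.23 ± 0.13 (SE, edgeR adjusted p = 0.906), a 1.17-fold difference with a 95% interval of 0.948-fold to 1.44-fold.

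Pou4f1 (Brn3a), a later member of the same POU family with a role in ganglion cell dendrites and subtypes, stood at 93.1, 112 and 92.6 CPM in the CKO, against 82.9, 166 and 133 CPM in the controls. Control replicate 1 was below every CKO library and the other 2 controls were above them. The log2 fold change was -0.36 ± 0.25 (SE, edgeR adjusted p = 0.926), and the interval, 0.525-fold to 1.16-fold, was among the widest. The paralogues thus had fold changes of opposite sign. Reads of Pou4f1 per read of Pou4f2 numbered 0.508, 0.603 and 0.462 in the CKO, against 0.482, 1.15 and 0.785 in the controls, so the genotypes overlapped in this ratio.

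Isl1, which works with Pou4f2 and is also expressed in amacrine and bipolar lineages, stood at 213, 245 and 243 CPM in the CKO, against 196, 156 and 237 CPM in the controls. Control replicate 3 lay within the CKO range. The log2 fold change was 0.25 ± 0.18 (SE, edgeR adjusted p = 0.929), the highest of the 10, with an interval of 0.898-fold to 1.58-fold. Reads of Isl1 per read of Pou4f2 lay between 1.16 and 1.32 in the CKO and between 1.08 and 1.39 in the controls.

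Ebf1 and Ebf3 encode helix-loop-helix factors of the early B cell factor family, which act in several kinds of neurons. Ebf3 was the more abundant by reads and stood at 380, 371 and 398 CPM in the CKO, against 355, 296 and 408 CPM in the controls. Control replicate 3 was the highest library and control replicate 2 the lowest, so that the controls spanned the CKO. Ebf1 stood at 69.0, 59.7 and 67.0 CPM in the CKO, against 62.9, 81.3 and 67.7 CPM in the controls, again with overlap. The log2 fold changes were 0.12 ± 0.15 for Ebf3 (edgeR adjusted p = 0.948) and -0.12 ± 0.15 for Ebf1 (SE, edgeR adjusted p = 0.947).

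Among the axon and cytoskeleton genes, Tubb3, the neuronal class of beta-tubulin found in all newborn retinal neurons, was the most abundant. It stood at 1073, 1018 and 1066 CPM in the CKO, against 967, 1086 and 890 CPM in the controls. Control replicate 2 was above the CKO libraries and the other controls below them. The log2 fold change was 0.10 ± 0.13 (SE, edgeR adjusted p = 0.946), with an interval of 0.875-fold to 1.31-fold.

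Gap43, a growth cone protein of extending axons, was the steadiest member in the CKO, at 651, 635 and 635 CPM, against 614, 721 and 564 CPM in the controls. Its log2 fold change of 0.02 ± 0.13 (SE, edgeR adjusted p = 0.991) was the one closest to 0, and its interval ran from 0.815-fold to 1.26-fold.

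Nefl and Nefm encode the light and medium neurofilament subunits, which assemble in ganglion cell axons. Nefl stood at 588, 561 and 603 CPM in the CKO, against 481, 679 and 443 CPM in the controls. Nefm stood at 406, 415 and 486 CPM in the CKO, against 304, 766 and 320 CPM in the controls. In both, the CKO libraries lay between control replicate 2 above and the other 2 controls below. The log2 fold change was 0.13 ± 0.18 for Nefl (SE, edgeR adjusted p = 0.953). For Nefm it was -0.09 ± 0.35 (SE, edgeR adjusted p = 0.983), with the widest interval of the 10, from 0.538-fold to 1.64-fold.

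Sncg encodes gamma-synuclein, a protein of ganglion cell bodies and axons. It stood at 266, 259 and 254 CPM in the CKO, against 300, 454 and 238 CPM in the controls. Control replicates 1 and 2 were above the CKO libraries and control replicate 3 below them. The log2 fold change was -0.35 ± 0.23 (SE, edgeR adjusted p = 0.921), with an interval of 0.543-fold to 1.14-fold.

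**Figure D2:**
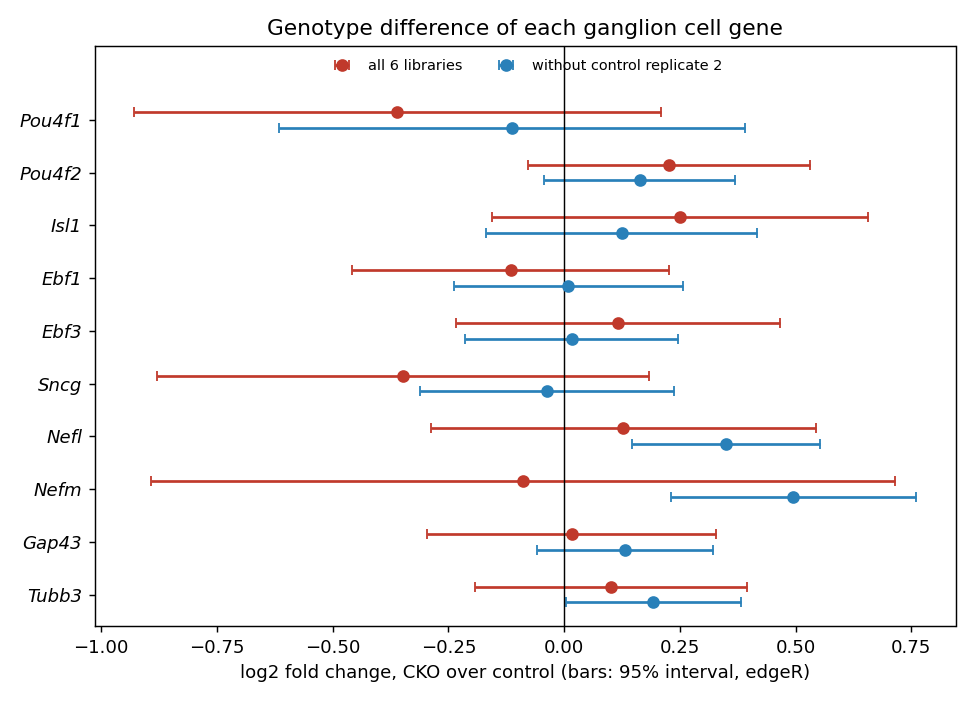
Log2 fold change of each ganglion cell gene, CKO over control, with its 95% interval from edgeR, in all 6 libraries (red) and without control replicate 2 (blue). Every red interval includes 0. Without control replicate 2 the intervals of Nefl, Nefm and Tubb3 lie above 0 before adjustment for all genes tested. How many of all tested genes did so was not counted.

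Spread between libraries was larger among the controls, which include control replicate 2, and was not computed without that library. Control replicates 1 and 3 stood close for Nefm, at 304 and 320 CPM, but less so for Isl1, at 196 and 237 CPM. The SD of log2 CPM was larger among the controls than among the CKO libraries for 10 of 10 members, with a median of 0.0617 in the CKO and 0.267 in the controls. The same direction held for 87.5% of all tested genes, whose medians were 0.098 and 0.327. Gap43 had the smallest CKO value, 0.0199, and Nefm the largest control value, 0.750. Control replicate 2 was the highest of the 6 libraries for 7 members and the lowest for the other 3. Over all tested genes it was the highest for 34.9% and the lowest for 34.0%.

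Control replicate 2 departed upward for some members and downward for others, and whether direction goes with gene class was not tested. Its median absolute departure in log2 CPM was 0.41 for the members and 0.43 for all tested genes. In the wider lists below, it was highest for 18 and lowest for 4 of 25 neuronal cytoskeleton genes. The numbers were 11 and 8 of 36 axon guidance genes, and 10 and 14 of 31 neuronal function genes. They were 11 and 9 of 30 other transcription factors, and 7 and 6 of 17 upstream genes. Relative to the mean of control replicates 1 and 3 on the log2 CPM scale, this library was higher by 1.30 for Nefm, 0.77 for Sncg and 0.56 for Nefl. It was higher by 0.29 for Gap43 and 0.23 for Tubb3, so all 5 axon and cytoskeleton genes were above. Of the 5 transcription factors, Pou4f1 at 0.66 and Ebf1 at 0.32 were also above. The largest upward departures, of Nefm, Sncg, Pou4f1 and Nefl, were of genes on chromosome 14. Isl1 at -0.46, Ebf3 at -0.37 and Pou4f2 at -0.24 were below. Reads of Nefm per read of Pou4f2 therefore numbered 5.30 in that library, 1.77 and 1.88 in control replicates 1 and 3, and 2.22, 2.23 and 2.42 in the CKO. Periocular mesenchyme and vessel markers summed to 299 to 335 CPM in the CKO and to 345, 503 and 409 CPM in control replicates 1 to 3, with 0 of the 16 at 0 in all CKO or all control libraries. Most of each sum was Kdr, at 243, 232 and 237 CPM in the CKO and 247, 296 and 306 CPM in the controls. The sums therefore say little on scarcer markers such as Pecam1, with means of 3.03 CPM in the CKO and 4.95 CPM in the controls. Control replicate 2 was the highest library for 4 of the 13 tested and the lowest for 2, and its higher sum came mainly from Col6a1, at 110 CPM there and 25.2 and 44.8 CPM in control replicates 1 and 3, and Col1a2, at 64.0 CPM there and 39.2 and 26.8 CPM in the others. Their part in the departure was not tested.

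**Figure D3:**
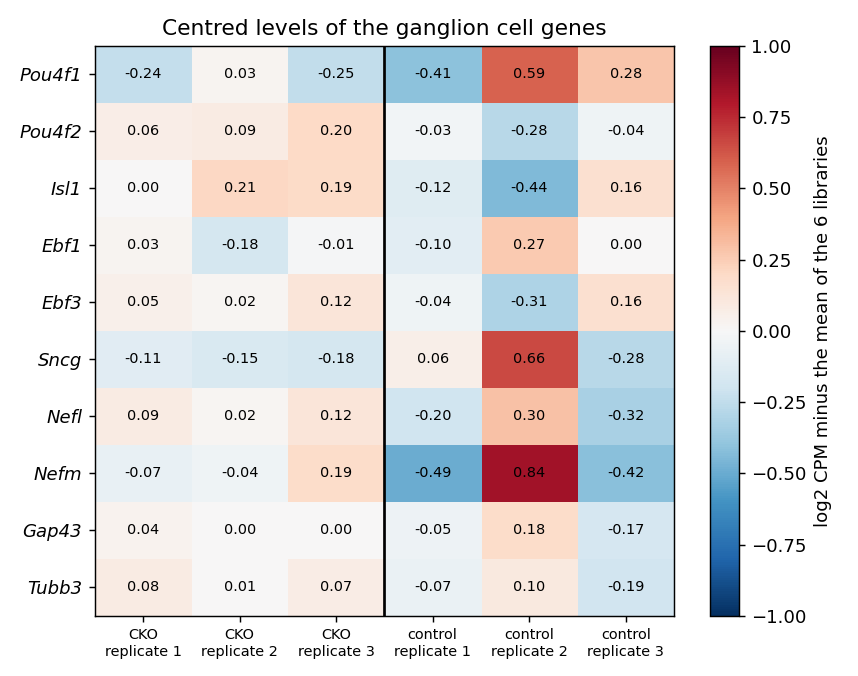
Log2 CPM of each ganglion cell gene minus its mean over the 6 libraries, for CKO replicates 1 to 3 (left of the line) and control replicates 1 to 3 (right of it), in red where higher and blue where lower. Control replicate 2 is the most strongly coloured column, red for 7 genes and blue for Pou4f2, Isl1 and Ebf3.

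Single controls moved several members. Without control replicate 2, Nefm had a log2 fold change of 0.50 ± 0.11 (SE, edgeR unadjusted p = 0.00351, adjusted p = 0.135) and Nefl one of 0.35 ± 0.08 (SE, edgeR unadjusted p = 0.00513, adjusted p = 0.169). All 3 CKO libraries were above both remaining controls in these genes, and likewise in Tubb3, Gap43 and Pou4f2. Control replicate 2, the library left out, was the highest of all for Nefm, Nefl, Tubb3 and Gap43. How many of all tested genes separated in this way was not counted, so no conclusion is drawn from the separation. Tubb3 followed at 0.19 ± 0.08 (SE, edgeR unadjusted p = 0.0459, adjusted p = 0.502). Pou4f1 moved to -0.11 ± 0.21 and Sncg to -0.04 ± 0.11. In this smaller comparison 1.48% of all tested genes and 0 of the 10 members passed. Without control replicate 1, Pou4f1 had a log2 fold change of -0.59 ± 0.15 (SE, edgeR unadjusted p = 0.00753, adjusted p = 0.229). Without control replicate 3, Sncg had one of -0.50 ± 0.19 (SE, edgeR unadjusted p = 0.0393, adjusted p = 0.507) and Isl1 one of 0.44 ± 0.16 (SE, edgeR unadjusted p = 0.0375, adjusted p = 0.503). Of the 10 members 0 passed in either of these comparisons, where 0.656% and 0.224% of all tested genes did. The share of all tested genes with an unadjusted p under 0.05 was not counted with a library left out. Without CKO replicate 1, the library with the highest lens markers, the log2 fold changes of the members lay between -0.36 and 0.31, and 0 were called, where 0.278% of all tested genes were.

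Levels were set side by side between genes per kilobase of exon, with exon lengths from GENCODE M21, which is of another build than the counts. The order by mean was the same in both genotypes. Tubb3 led at 563 ± 16.1 CPM per kilobase in the CKO and 525 ± 52.9 in the controls (SD, n = 3 per group), followed by Gap43 at 420 ± 5.83 and 416 ± 52.4 and Sncg at 305 ± 6.83 and 388 ± 131. Gap43 and Sncg lay apart in the CKO but did not differ beyond the spread in the controls. Nefl came next at 173 ± 6.31 CPM per kilobase in the CKO and 158 ± 37.5 in the controls, and Nefm at 75.3 ± 7.56 and 80.1 ± 45.4. The transcription factors had lower means: Pou4f2 was at 59.2 ± 2.93 CPM per kilobase in the CKO and 50.6 ± 4.81 in the controls, and Isl1, at 59.0 ± 4.52 and 49.5 ± 10.2, did not differ from it beyond the spread. In the controls the spread of Nefm overlapped that of Nefl above it and of Pou4f2, Isl1, Ebf3 and Pou4f1 below it. Control replicate 2 raised the mean of Nefm there, at 766 CPM against 304 and 320 CPM in control replicates 1 and 3. Ebf3 was at 41.5 ± 1.47 and 38.3 ± 6.11, Pou4f1 at 21.2 ± 2.38 and 27.3 ± 8.94, and Ebf1 at 6.68 ± 0.50 and 7.24 ± 0.974. Ebf1 and Ebf3 have long annotated exons, which lowers their values on this scale.

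Genes around these members were followed in 5 further lists. Of 18 genes upstream of, or set against, the ganglion cell fate, 17 were tested and 0 passed (8 positive, 9 negative, median log2 fold change -0.00229). The balance was 12 positive and 5 negative with library sizes alone as the scaling, which put the median of all genes at 0.04, 11 and 6 without control replicate 2, and 10 and 7 without control replicate 3. Sox11, a transcription factor of newborn neurons, stood at 1035 ± 32.2 CPM in the CKO and 1362 ± 390 CPM in the controls, with 1791 CPM in control replicate 2. Pax6, a regulator of eye development kept on in ganglion cells, stood at 890 ± 43.5 and 825 ± 48.9 CPM (SD, n = 3 per group). Atoh7, the factor that makes progenitors competent for this fate, was named after its values were seen and stood at 188 ± 14.1 CPM in the CKO and 193 ± 33.9 CPM in the controls, a log2 fold change of -0.04 ± 0.16.

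Of 31 other transcription factors of ganglion cells or newborn neurons, 30 were tested and 0 passed (10 positive, 20 negative, median -0.03). The balance turned to 17 positive and 13 negative with library sizes alone and to 19 and 11 without control replicate 3. The most abundant were Sox12 at 254 ± 4.07 CPM in the CKO and 225 ± 27.7 CPM in the controls, and Myt1 at 230 ± 5.48 and 232 ± 39.7 CPM. Relatives of the members, named after their values were seen, were much scarcer in reads. Pou4f3 stood at 3.86 ± 0.70 CPM in the CKO and 5.34 ± 1.07 CPM in the controls, Isl2 at 26.2 ± 3.27 and 33.0 ± 14.2 CPM, and Ebf2 at 7.88 ± 0.94 and 8.37 ± 2.21 CPM (SD, n = 3 per group).

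Of 36 axon guidance and adhesion genes tested, 0 passed, and 32 had negative and 4 positive log2 fold changes, with a median of -0.18 against -0.03 over all tested genes. Of all 14609 tested genes, 8040 were negative. The median lay between -0.14 and -0.23 when each control was left out in turn. The adhesion molecule genes Ncam1 and Cntn2 were the most abundant. Ncam1 stood at 533 ± 29.7 CPM in the CKO and 723 ± 211 CPM in the controls, and Cntn2 at 485 ± 16.8 and 630 ± 271 CPM, both highest in control replicate 2. The 5 genes of this list with an unadjusted p under 0.05 (edgeR), named for that after their values were seen, were Dcc, Epha5, Nrp2, Plxna4 and Ptch1. Among all tested genes, 6.58% had such a p. Dcc, the netrin receptor that guides ganglion cell axons out of the eye, stood at 173, 153 and 142 CPM in the CKO, against 213, 175 and 227 CPM in the controls, without overlap (log2 fold change -0.40 ± 0.15, SE, edgeR adjusted p = 0.659).

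Of 25 neuronal cytoskeleton genes, 0 passed (9 positive, 16 negative, median -0.18). That median came to 0.03 without control replicate 2, which was the highest of the 6 libraries for 18 of the 25. Tuba1a stood at 3397 ± 83.1 CPM in the CKO and 2976 ± 731 CPM in the controls, and Marcks, an actin-binding membrane protein, at 1450 ± 49.7 and 1525 ± 111 CPM. Ina, the internexin subunit that joins neurofilaments, was named after its values were seen and stood at 584 ± 9.48 and 569 ± 123 CPM (SD, n = 3 per group). The microtubule-associated Map1b, named for its unadjusted p, stood at 886, 943 and 831 CPM in the CKO, against 1004, 2119 and 1381 CPM in the controls (log2 fold change -0.76 ± 0.25, SE, edgeR adjusted p = 0.520).

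Of 31 RNA-binding, vesicle and channel genes of ganglion cells, 0 passed (13 positive, 18 negative, median -0.05). The balance was 18 positive and 13 negative both with library sizes alone and without control replicate 3, and 16 and 15 without control replicate 2. The most abundant were Uchl1 at 481 ± 17.9 CPM in the CKO and 506 ± 163 CPM in the controls and the RNA-binding Elavl3 at 376 ± 15.9 and 409 ± 98.6 CPM. Scn2a1, a voltage-gated sodium channel gene named after its values were seen, had the smallest p of the list, at 10.6, 13.7 and 9.94 CPM in the CKO, against 16.7, 23.8 and 26.8 CPM in the controls. The log2 fold change was -0.98 ± 0.22 (SE, edgeR adjusted p = 0.174), and DESeq2's Wald test called it at an adjusted p of 0.00968.

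**Figure D4:**
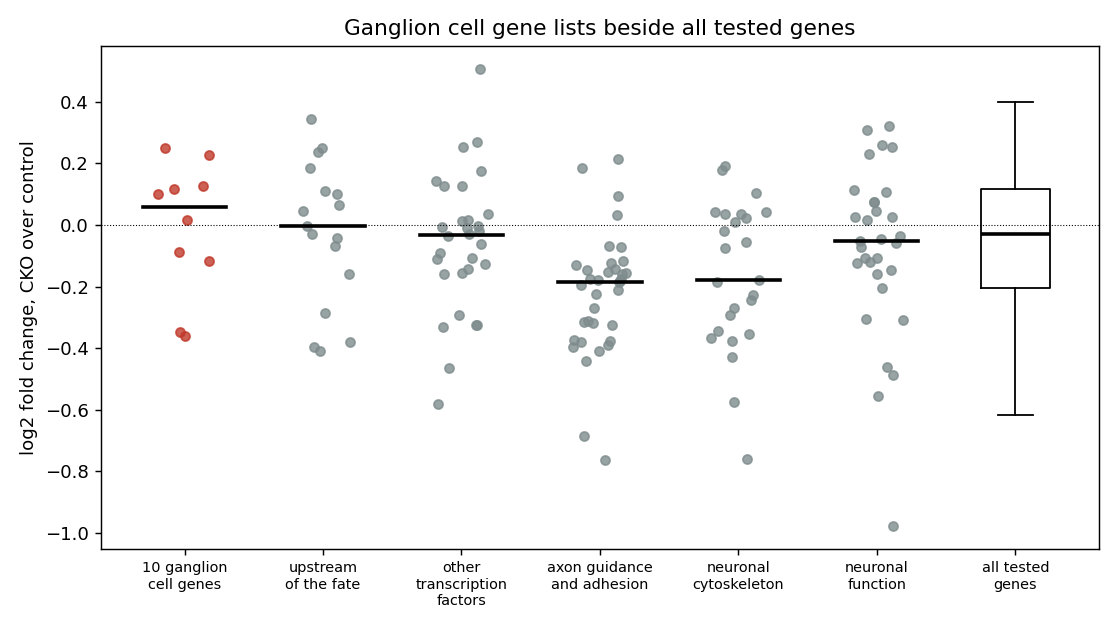
Log2 fold change, CKO over control, of every tested gene in the 10 ganglion cell genes (red) and 5 further lists (grey), with the list median as a black line, beside a box of all tested genes (quartiles, whiskers at the 5th and 95th percentiles). List medians lie between -0.18 and 0.06, and the median of all tested genes is -0.03.

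The genes whose pattern over the 6 libraries was closest to the median of the 10 members were named by the smallest root mean square difference of centred log2 CPM. They were Dhx35 at 0.0343, Eif2b3 at 0.0395, Islr2 at 0.0395, Vmac at 0.0396 and Efnb1 at 0.0400. Islr2, an axonal membrane protein, stood at 837, 788 and 856 CPM in the CKO, against 759, 967 and 760 CPM in the controls, with control replicate 2 the highest. Among the members themselves, Gap43 at 0.0525 and Tubb3 at 0.0658 lay nearest to that median and Nefm at 0.334 and Pou4f1 at 0.311 farthest from it.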

How the data were processed

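All 6 libraries share 1 table, in which the authors deposited raw read counts by gene symbol. Per the labels' protocols, poly-A selected RNA was size-fractionated and reverse transcribed. BWA 0.7.6a-r433, HTSeq 0.5.4p3, DESeq 2.13 and build mm9 were used, per the submitters' processing notes, which give no roles. The strand setting and annotation were not stated, so reads of antisense partners cannot be told apart. The 3 lines that name no gene were skipped, and 1 repeated line was kept once.

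The analysis of the counts used edgeR 4.0.16 under R 4.3.3: filterByExpr (minimum count 10), TMM scaling and the quasi-likelihood F test on genotype, fitted to all 14609 genes that passed, with Benjamini-Hochberg adjustment over all of them and a threshold of 0.05. SE is the absolute log2 fold change over the square root of F. The 95% interval uses the total degrees of freedom of the moderated fit, prior plus residual (7.73 with all 6 libraries). The fit was also run on simulated counts, which held no library set apart as control replicate 2 is, so that run does not show how the fit performs here. Alternatives were DESeq2 1.42.0 (size factors and Wald test), limma 3.58.1 voom, library sizes alone, other filters, a threshold of 0.01, a replicate block and leaving out each library. Members and lists were chosen with earlier results of these data known. Named genes were the members, Thap11, the 2 most abundant and any called genes of each of the 5 other ganglion cell lists, the 5 nearest in pattern, and others marked in the text; a progenitor marker is not reported here. No 2 libraries agreed within sampling noise (lowest chi-square per degree of freedom 5.77).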

Additional observations from a re-analysis of the deposited data

How the results depend on the processing

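The count of called ganglion cell genes was 0 of 10 in all 6 libraries and in each alternative run, including the replicate block, and the lowest adjusted p of any member was 0.135. Of 130 recomputed log2 fold changes, 7 changed sign, in 3 members, and the cause was not tested: Nefm at 0.0121 with library sizes alone, 0.0466 with limma-voom, 0.0533 with the replicate block and -0.32 to 0.50 over libraries left out in turn, with 0.50 without control replicate 2; Ebf1 at -0.19 to 0.00933; and Gap43 at -0.0252 to 0.13. The count over all genes, 131, was 39 at a threshold of 0.01, 313 with DESeq2's Wald test, 153 with the replicate block and 16 to 219 with a library left out, where 219 was without control replicate 2 and 16 without CKO replicate 3. It was 33 without control replicate 3, 41 without CKO replicate 1 and 53 without CKO replicate 2. The replicate numbers are not said to pair libraries, so the main fit has no block. Deviations from the group means correlated over genes at 0.336, 0.107 and -0.00775 for same-numbered libraries. For differently numbered ones they correlated at -0.253 to 0.201. With 3 libraries per group, the 95% intervals of 4 members, Pou4f1, Isl1, Sncg and Nefm, reach past 1.5-fold. These intervals are not adjusted for all genes tested, so they are not a limit of detection. Differences of 1.5-fold could go uncalled in any of the 10 members, and larger ones in those with larger SEs. Cdkn1a, for example, had a log2 fold change of 0.58 ± 0.15 (SE) and was not called (edgeR adjusted p = 0.226). Scn2a1 was not called either at -0.98 ± 0.22 (SE, edgeR adjusted p = 0.174), a difference near 2-fold. The SEs of Nefm, Pou4f1 and Sncg were larger still, at 0.35, 0.25 and 0.23, so differences of 2-fold could go uncalled in them.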

Other observations

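Genes known to rise in injured ganglion cells or through p53 formed a list of 10, of which 9 were tested and 0 passed (4 positive, 5 negative, median log2 fold change -0.06). Cdkn1a, a cyclin-dependent kinase inhibitor gene named after its values were seen, stood at 13.7 ± 0.40 CPM in the CKO and 9.15 ± 0.31 CPM in the controls (SD, n = 3 per group), without overlap. Its log2 fold change was 0.58 ± 0.15 (SE, edgeR adjusted p = 0.226), and DESeq2's Wald test called it at an adjusted p of 0.0224.

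Markers of the other neurons of this age were measured beside the ganglion cell genes. These lists share genes with the ganglion cell lists above, namely Neurod1 and Neurod4 (photoreceptor) and Onecut1, Onecut2 and Barhl2 (amacrine and horizontal). Photoreceptor precursor markers summed to 1011 to 1128 CPM in the CKO and 874 to 1126 CPM in the controls, with 0 of 9 tested members past the test. Amacrine and horizontal cell markers summed to 686 to 746 CPM in the CKO and 594 to 825 CPM in the controls, with 0 of 13 past the test. The largest part of that sum was Foxn4, at 215 to 256 CPM in the CKO and 185 to 366 CPM in the controls. Pigment epithelium markers summed to 40.3 to 48.1 CPM and 45.6 to 88.1 CPM, and blood and microglia markers to 34.3 to 52.4 CPM and 36.8 to 54.6 CPM, in the CKO and the controls.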
